A study of Mus musculus with 4 samples.

Results

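The genes described here make, break down or sense prostaglandins, lipid mediators that act on hair growth and on wound repair. They were chosen by symbol as 10 named genes of the 25571 in the table, and all 10 were found. They comprise both cyclooxygenases (Ptgs1 and Ptgs2), the terminal synthases Ptges, Ptgds and Ptgis, the inactivating dehydrogenase Hpgd, and the receptors Ptger2, Ptger4, Ptgir and Ptgfr. RNA was read from mouse skin in 4 groups with 1 library each. The labels call them NC, PRP, MNs and PRP-MNs. Platelet-rich plasma (PRP) is a platelet concentrate of blood, microneedles (MNs) pierce the skin in an array of short fine points, and PRP-MNs joins both names. NC, whose meaning is not given, served as the reference. The sources used here do not give the strain, sex or age of the mice, the time of harvest, the hair cycle stage or the number of animals per library.

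Phospholipases free arachidonic acid from membranes, and a cyclooxygenase turns it into prostaglandin H2. Terminal synthases then make the single prostanoids: prostaglandin E2 (PGE2) through Ptges, prostaglandin D2 (PGD2) through Ptgds, and prostacyclin through Ptgis. The products act on nearby cells through receptors coupled to G proteins and are taken up and oxidised by Hpgd. In skin, PGE2 and prostaglandin F2 alpha are known to promote hair growth, PGD2 to restrain it, and PGE2 and prostacyclin to widen vessels during inflammation and repair.

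Values are FPKM, in which the fragments of a gene are divided by its length and by the size of the library, so levels may be compared between genes. The steps between low values put the depth of the libraries, in M fragments, near 15.9 for PRP, 17.3 for PRP-MNs, 18.6 for MNs and 19.4 for NC. These depths came from a search between 8 and 25 M, and a search up to 50 M preferred about 2 times as many, from 31.8 in PRP to 38.6 in NC. Values midway between whole fragments made up 6.28% to 9.58% of the low values, against 23.3% to 27.1% at whole fragments, and which depth is right was not settled. Intervals given below are 95% exact Poisson intervals on the fragment numbers estimated at these depths for the longest coding transcript. They cover counting error only. On a shorter coding transcript fragment numbers would be lower and intervals wider, so intervals that stay apart here might then overlap. At the doubled depth, fragment numbers would double and intervals would be narrower, so intervals that overlap here might then not. With 1 library per group no spread between animals was available, no test was made, and each difference describes these libraries rather than the treatments. Differences are log2 ratios of FPKM + 1, which understate low genes, and a difference was counted at 2-fold or more on that scale (1 in log2). A gene was measured in a comparison if either library held it at 1 FPKM or more.

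The libraries carried skin markers throughout, with the basal keratin Krt14 between 2055 and 3966 FPKM. Muscle was also present, with the skeletal actin Acta1 between 2873 and 4958 FPKM. Of 6 dermal papilla markers, Corin, Sox2 and Hhip stayed below 1 FPKM in every library. Crabp1 was found in all, from 7.47 FPKM in NC to 63.3 FPKM in MNs. Lepr ran from 0.94 FPKM in NC to 4.24 FPKM in MNs, and Rspo3 reached 1 FPKM in NC alone (1.24 FPKM). The summed level of 7 markers of differentiated keratinocytes ran from 1700 FPKM in PRP-MNs to 19052 FPKM in NC, and that of 8 monocyte and macrophage markers from 99.5 FPKM in NC to 1347 FPKM in PRP-MNs. In such bulk samples fewer cells of a type and less RNA per cell cannot be told apart.

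On GRCm38, Ptgs1 (ENSMUSG00000047250) lies on the forward strand of chromosome 2 from 36230426 to 36252272, and Ptgs2 (ENSMUSG00000032487) on the forward strand of chromosome 1 from 150100031 to 150108227. The synthase genes share chromosome 2 on the reverse strand: Ptges (ENSMUSG00000050737) from 30889471 to 30929863, Ptgds (ENSMUSG00000015090) from 25466709 to 25470046, and Ptgis (ENSMUSG00000017969) from 167191805 to 167240604. Ptgir (ENSMUSG00000043017) lies on chromosome 7 from 16906490 to 16910905 and Ptgfr (ENSMUSG00000028036) on chromosome 3 from 151796502 to 151837630. Ptger2 (ENSMUSG00000037759) lies on chromosome 14 from 44988195 to 45003820, Ptger4 (ENSMUSG00000039942) on chromosome 15 from 5206661 to 5244187, and Hpgd (ENSMUSG00000031613) on chromosome 8 from 56294585 to 56321043. Exons of Ptger4 overlap those of the protein-coding gene Ttc33 on the opposite strand, which stood between 8.64 and 11.3 FPKM, and exons of Ptgs1, Ptgis, Ptger2 and Ptgfr overlap noncoding or unclassified gene models on the opposite strand. No source used here says whether counting used strand, and these values may hold fragments of the partner gene.

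Ptgs1 and Ptgs2 catalyse the same reaction and differed from NC in opposite directions in PRP-MNs, so the sequence just upstream of each is shown. Each run holds the 250 bases before the annotated start in the direction of the gene, from RefSeq's tables on GRCm38.p6. Capitals mark matches to the motifs searched on both strands: TATAAA for the core promoter box of that name, CGTCA for the core of the cAMP response element, CACGTG for the E-box, TGANTCA for AP-1, TTNNGNAA for C/EBP and the NF-kB consensus.
Ptgs1, chr2:36230176-36230425, forward strand: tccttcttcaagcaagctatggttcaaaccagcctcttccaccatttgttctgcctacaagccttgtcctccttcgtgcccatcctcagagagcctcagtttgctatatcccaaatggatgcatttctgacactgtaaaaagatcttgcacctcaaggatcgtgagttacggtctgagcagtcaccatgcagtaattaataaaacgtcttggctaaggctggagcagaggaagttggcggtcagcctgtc
Ptgs2, chr1:150099781-150100030, forward strand: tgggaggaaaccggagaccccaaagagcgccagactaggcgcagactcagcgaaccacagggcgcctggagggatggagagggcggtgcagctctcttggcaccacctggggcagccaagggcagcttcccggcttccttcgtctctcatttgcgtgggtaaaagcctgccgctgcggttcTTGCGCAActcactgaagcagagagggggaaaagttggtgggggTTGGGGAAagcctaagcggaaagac
Ptgs2, first 30 bases from the start, chr1:150100031-150100060, forward strand: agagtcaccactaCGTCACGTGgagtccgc

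No motif matched in the Ptgs1 window. In the Ptgs2 window TTNNGNAA matched from base 69 to base 62 before the start, on both strands since TTGCGCAA reads the same on each, and from base 25 to base 18. This motif is common, and 36.8% of 32851 RefSeq promoter windows of that length held it, as did 6 of the 9 genes described here that matched an entry. TGANTCA and the NF-kB consensus each matched only in the Ptgds window among those 9 (6.75% and 7.25% of all windows), and no match of TATAAA was found, which 12.4% of all windows held, nor of CGTCA (held by 17.8%) or CACGTG (held by 6.02%). Just past the annotated Ptgs2 start, CGTCA at bases 14 to 18 and CACGTG at bases 17 to 22 overlap, in a stretch added after its sequence had been seen. Where transcription starts in these libraries was not measured. These matches may therefore lie before the start that is used, and Ptgs2 cannot be said to lack them upstream. Of all windows of 50 bases from the start, 3.49% held CGTCA and 1.08% held CACGTG. GC content was 48.0% in the Ptgs1 window and 61.6% in the Ptgs2 window, against a median of 52.4% over all windows. A match describes letters and does not show that a factor binds there.

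Ptgs1, the cyclooxygenase that many tissues make at rest, stood at 98.6 FPKM in NC, 69.5 in PRP, 23.6 in MNs and 17.0 in PRP-MNs. Both microneedle libraries were far below both libraries without microneedles, and no counting intervals met, the nearest being 15.8 to 18.1 FPKM in PRP-MNs and 22.3 to 24.9 FPKM in MNs. Against NC the log2 difference was −2.47 in PRP-MNs, −2.02 in MNs and −0.50 in PRP. The level in NC was 5.81 times that in PRP-MNs and 4.18 times that in MNs. Only 1.86% of the genes tested were as low or lower in PRP-MNs against NC, and 1.55% in MNs against NC. The 7 markers of differentiated keratinocytes summed to 19052, 9922, 3626 and 1700 FPKM in NC, PRP, MNs and PRP-MNs, the same order as Ptgs1, and in PRP-MNs all 7 were lower than NC by 2-fold or more. Their part in the Ptgs1 difference was not tested.

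Ptgs2, the inducible cyclooxygenase of inflamed and wounded tissue, stood at 8.86 FPKM in NC, 5.46 in PRP, 11.3 in MNs and 41.8 in PRP-MNs. PRP-MNs was far above the rest, and PRP was the lowest, below NC. Its interval in PRP-MNs was 40.4 to 43.3 FPKM and in MNs 10.6 to 12.0 FPKM. The log2 difference of PRP-MNs was 2.12 against NC, 2.73 against PRP and 1.80 against MNs, or 4.72, 7.65 and 3.70 times the FPKM. Of the genes tested, 0.70% were as high or higher against PRP, 2.55% against MNs and 5.71% against NC. PRP and MNs differed from NC by −0.61 and 0.32.

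Because both genes were read within each library, their mix does not depend on how libraries were scaled. Ptgs2 made up 8.25% of the summed cyclooxygenase FPKM in NC, 7.29% in PRP, 32.4% in MNs and 71.1% in PRP-MNs. Ptgs1 was 11.1 times Ptgs2 in NC and 12.7 times in PRP, but 2.08 times in MNs, and in PRP-MNs Ptgs2 was 2.46 times Ptgs1. The sum of both was 107.4 FPKM in NC, 75 in PRP, 34.9 in MNs and 58.8 in PRP-MNs. The library with the highest Ptgs2 thus held less cyclooxygenase mRNA in all than NC or PRP did.

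**Figure D1:**
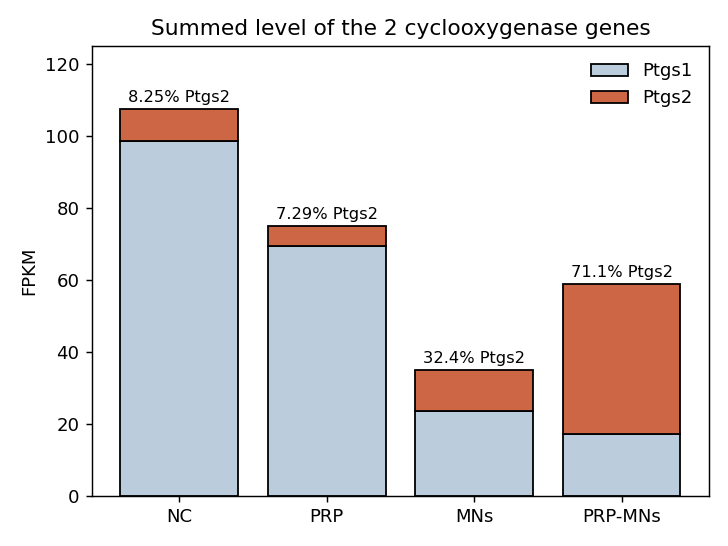
Stacked bars show FPKM of Ptgs1 (pale) and Ptgs2 (orange) on a linear axis in the 4 libraries, 1 bar per library, with the Ptgs2 percentage above each bar. The Ptgs2 part grows from 7.29% in PRP to 71.1% in PRP-MNs while the whole bar is tallest in NC.

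Ptges, the inducible synthase that forms PGE2, stood at 45.4 FPKM in NC, 50.2 in PRP, 34.6 in MNs and 34.9 in PRP-MNs. The counting intervals of both microneedle libraries overlapped, and both lay below those of NC and PRP. Its largest difference was −0.51, between PRP-MNs and PRP, so in none of the 5 comparisons did it reach 2-fold. It stayed the most abundant of 5 terminal synthases (Ptges, Ptgis, Ptgds, Hpgds and Tbxas1), at 68.3% of their summed FPKM in NC and 52.0% in PRP-MNs. These shares leave out other synthases that were as abundant. Ptges3, at 63.9 FPKM in NC, 56.7 in PRP, 54.2 in MNs and 66.9 in PRP-MNs, stood above Ptges in every library. Akr1b3 and Fam213b did so in some libraries.

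Ptgis, the prostacyclin synthase of vessel walls and fibroblasts, stood at 2.0 FPKM in NC, 5.73 in PRP, 5.22 in MNs and 18.3 in PRP-MNs. NC was lowest and PRP-MNs highest, while the counting intervals of PRP (4.96 to 6.62 FPKM) and MNs (4.52 to 5.97 FPKM) overlapped. It was at least 2-fold higher than NC in all 3 treated libraries, with log2 differences of 2.69 in PRP-MNs, 1.17 in PRP and 1.05 in MNs. PRP-MNs was also higher than PRP by 1.52 and higher than MNs by 1.64. Its share of the 5 terminal synthases was 3.0% in NC, 7.27% in PRP, 9.97% in MNs and 27.4% in PRP-MNs. After centring on the median of all genes the difference in MNs was 0.89, under 2-fold. Against NC, 3.56% of genes tested were as high or higher in PRP-MNs, 5.53% in PRP and 14.5% in MNs. All 3 differences against NC share 1 NC library.

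Ptgds, which makes PGD2, was close to the limit of detection. It was listed at 0 in PRP-MNs. It stood at 0.12 FPKM in NC, 0.07 in PRP and 0.89 in MNs, on about 2, 1 and 15 fragments. No library reached 1 FPKM, so it was measured in no comparison. Only MNs was above the level that 3 fragments give, which was between 0.172 and 0.21 FPKM across the libraries for its longest coding transcript. The other PGD2 synthase, Hpgds of mast and other blood cells, was more abundant, at 18 FPKM in NC, 17.9 in PRP, 7.31 in MNs and 7.87 in PRP-MNs. Against NC its log2 difference was −1.10 in PRP-MNs and −1.19 in MNs, both past 2-fold.

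Hpgd, the dehydrogenase that inactivates PGE2 and related prostaglandins, was nearly level. It stood at 14.4 FPKM in NC, 17.8 in PRP, 13.7 in MNs and 15.7 in PRP-MNs, and the highest was 1.30 times the lowest. The counting interval in PRP (16.2 to 19.5 FPKM) lay above those of NC and MNs and overlapped that of PRP-MNs (14.3 to 17.2 FPKM). The ratio of Ptges to Hpgd lay between 2.22 in PRP-MNs and 3.15 in NC.

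The 4 receptor genes each had their lowest value in NC, though for Ptger4 by a margin within counting error. Ptgir, the prostacyclin receptor, which raises cAMP, stood at 0.29 FPKM in NC, 1.18 in PRP, 6.45 in MNs and 6.72 in PRP-MNs. Both microneedle libraries were high, with overlapping intervals of 5.83 to 7.11 and 6.08 to 7.44 FPKM, and both libraries without microneedles were low. It was higher than NC by 2.59 in PRP-MNs and by 2.53 in MNs, and by 0.76 in PRP. In FPKM these were 23.5, 22.5 and 4.11 times NC, a level that rested on about 18 fragments. With a pseudocount of 0.1 FPKM the difference in PRP was 1.73, past 2-fold. Between PRP-MNs and MNs it differed by 0.05.

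Ptgfr, the receptor of prostaglandin F2 alpha, stood at 1.19 FPKM in NC, 1.82 in PRP, 8.38 in MNs and 3.97 in PRP-MNs. MNs was the highest and the 4 counting intervals, taken on the longest coding transcript, did not meet. On the shorter transcript NC and PRP would rest on about 35 and 44 fragments, and their wider intervals might overlap. The log2 difference against NC was 2.10 in MNs, 1.18 in PRP-MNs and 0.37 in PRP. PRP-MNs was below MNs by −0.92, just under 2-fold on the log2 scale although the FPKM in MNs was 2.11 times that in PRP-MNs, and with a pseudocount of 0.1 FPKM it was −1.06. For Ptgir, by contrast, PRP-MNs and MNs were level.

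Ptger2 and Ptger4 encode the PGE2 receptors that raise cAMP. Ptger2 was low, at 0.17 FPKM in NC, 0.34 in PRP, 0.45 in MNs and 1.53 in PRP-MNs, on about 12, 20, 31 and 97 fragments. Only PRP-MNs reached 1 FPKM and stood clear of the others. Its log2 difference was 1.12 against NC, and it was measured there only through the library in which it was high. After centring on the median of all genes this difference was 0.97, under 2-fold. Ptger4 stood at 5.15 FPKM in NC, 5.24 in PRP, 6.08 in MNs and 6.07 in PRP-MNs, with counting intervals that overlapped between all 4 libraries. Its differences against NC were 0.02 in PRP and 0.20 in each of MNs and PRP-MNs.

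The summed level of 9 prostanoid receptor genes was 10.1 FPKM in NC, 13.6 in PRP, 31.9 in MNs and 25.1 in PRP-MNs. Ptger4 alone gave 50.8% of that sum in NC and 24.2% in PRP-MNs. Ptgir went from 2.83% in NC to 26.7% in PRP-MNs and 20.3% in MNs, and Ptgfr from 11.7% in NC to 26.3% in MNs. Ptger3, a PGE2 receptor that lowers cAMP, kept between 22.7% and 27.2%. Ptger1 and the PGD2 receptors Ptgdr and Ptgdr2 stayed below 1 FPKM in every library.

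**Figure D2:**
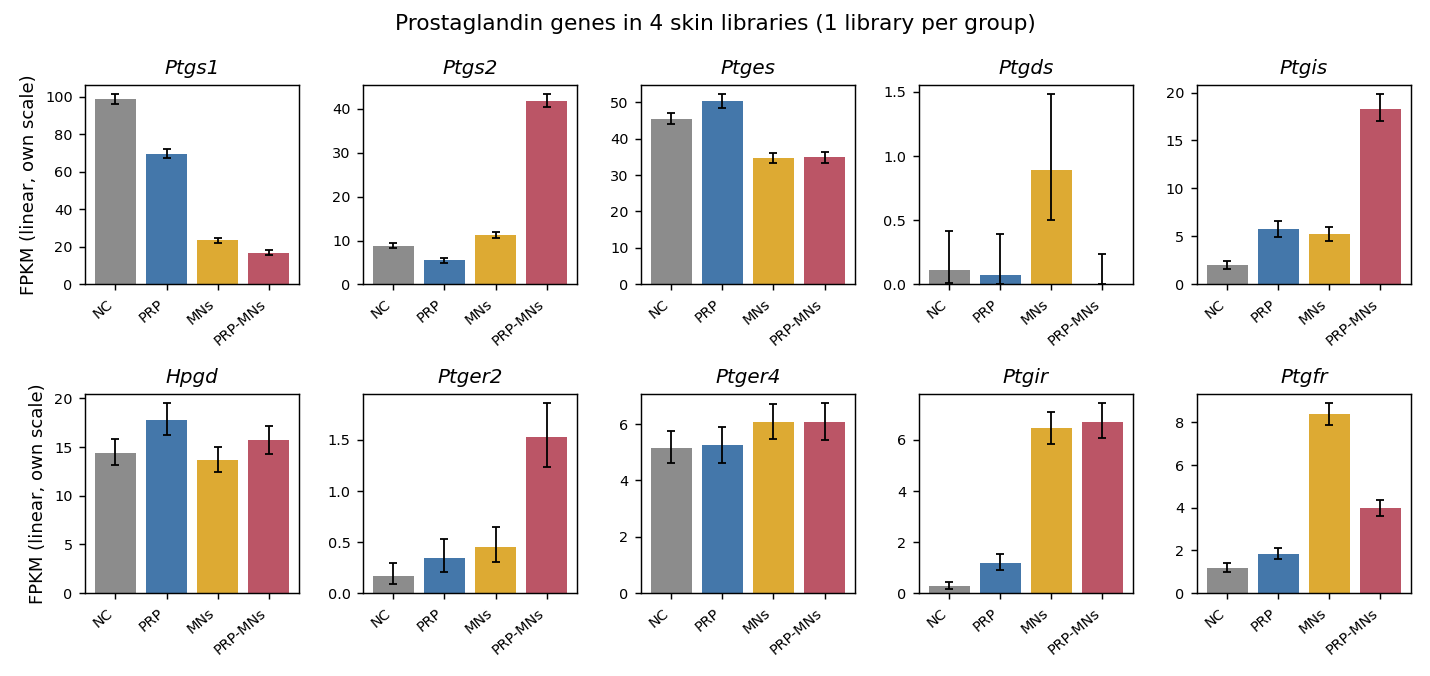
Bars show FPKM of each of the 10 genes in the 4 libraries, on linear axes that start at 0 and differ between panels, and error bars show the 95% Poisson interval of the estimated fragments (counting error only). Ptgs1 stands at 98.6 FPKM in NC against 17.0 FPKM in PRP-MNs, Ptgs2 and Ptgis are highest in PRP-MNs at 41.8 and 18.3 FPKM, and Ptges, Hpgd and Ptger4 are nearly level.

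Markers of other cell types differed between the same libraries. The 6 neutrophil markers summed to 237.4 FPKM in NC, 412.0 in PRP, 187.5 in MNs and 1036 in PRP-MNs. PRP-MNs was highest there, as it was for Ptgs2, Ptgis and Ptger2, but the sum was lowest in MNs, where none of these genes was lowest. S100a8 and S100a9, which carry most of that sum, were lower in MNs than in NC, while Csf3r (15.9 against 0.736 FPKM), Cxcr2, Retnlg and Mmp9 were higher, 2 of the 6 by 2-fold or more. The 8 monocyte and macrophage markers summed to 99.5 FPKM in NC, 432.2 in PRP, 524.4 in MNs and 1347 in PRP-MNs. Ly6c2 was the largest part of the PRP-MNs sum, at 651.1 FPKM against 21.6 FPKM in MNs. Mrc1 (62.4 against 130.5 FPKM), C1qa (87.3 against 138.7) and Csf1r (39.3 against 46.0) were lower in PRP-MNs than in MNs. Blood endothelial markers, with Pecam1 and Cdh5 as defining genes, summed to 18.5 FPKM in NC, 53.8 in PRP, 106.4 in MNs and 166.3 in PRP-MNs. All 6 were at least 2-fold higher than NC in both microneedle libraries, where Ptgir was high. The endothelial sum and the monocyte and macrophage sum were lowest in NC and highest in PRP-MNs, as were Ptgis, Ptger2 and Ptgir.

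Markers of smooth muscle and pericytes summed to 54.1 FPKM in NC, 138.3 in PRP, 318.3 in MNs and 209.8 in PRP-MNs. That was the same order of libraries as for Ptgfr, though Rgs5 was higher in PRP (39.6 FPKM) than in PRP-MNs (23.7 FPKM). The sum of fibroblast markers had another order, at 7180 FPKM in MNs, 1838 in PRP, 974.3 in PRP-MNs and 857.9 in NC. Of these markers Pdgfra had the order of Ptgfr, at 59.8 FPKM in MNs, 45.6 in PRP-MNs, 15.6 in PRP and 4.75 in NC. The other fibroblast markers were higher in PRP than in PRP-MNs. Of the 6 platelet markers the chemokine Pf4 stood between 21.7 and 235.9 FPKM. Ppbp stood at 0.315 FPKM in NC, 0.738 in PRP, 6.06 in MNs and 56.1 in PRP-MNs, and Itga2b between 1.11 and 2.72 FPKM. Gp1bb, Gp9 and Gp1ba were below 1 FPKM in every library, and Gp9 was listed at 0 in PRP-MNs. Mast cell markers summed to 150.6 FPKM in MNs and to between 34.9 and 69.0 FPKM elsewhere, whereas Hpgds was lowest in MNs (7.31 FPKM). The part of these cells in the differences of the prostaglandin genes was not tested.

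Counted over the 10 genes, PRP-MNs differed most from NC. Of 9 measured there, 5 were at least 2-fold higher (Ptgs2, Ptgis, Ptger2, Ptgir and Ptgfr), 1 was lower (Ptgs1) and 3 were neither. Among all 13981 genes tested in that comparison, 29.1% differed by 2-fold or more, 17.6% being higher and 11.5% lower. Centring turned 2462 higher and 1607 lower into 2061 and 1933. The median difference was 1.12 over the 9 measured and 0.14 over all genes tested, though Ptger2 and Ptgir passed the filter only through PRP-MNs.

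In PRP against NC, 8 were measured, 1 was higher (Ptgis) and none lower, where 9.24% of 13533 genes differed by 2-fold or more (7.78% higher and 1.46% lower). In MNs against NC, 8 were measured, 3 were higher (Ptgis, Ptgir and Ptgfr) and 1 lower (Ptgs1), where 22.8% of 13925 genes did (15.7% higher and 7.12% lower). Over all genes that was 2188 higher and 991 lower, and 1729 and 1261 after centring. The medians were 0.22 and 0.26, against 0.04 and 0.16 over all genes tested. Ptgir passed the filter in both only through the treated library. Ptgs1 was thus at least 2-fold lower in both microneedle libraries, and Ptgs2 higher in PRP-MNs alone.

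PRP-MNs was also compared with each single treatment. Against PRP, 3 of 9 measured genes were higher (Ptgs2, Ptgis and Ptgir) and Ptgs1 was lower, by −1.97, where 17.0% of 13861 genes differed by 2-fold or more (9.54% higher and 7.50% lower). Centring turned 1323 higher and 1039 lower of all genes into 1176 and 1230. Against MNs, 2 of 9 were higher (Ptgs2 and Ptgis) and none lower, where 14.5% of 13933 genes did (7.16% higher and 7.39% lower). These comparisons share the PRP-MNs library. With a pseudocount of 0.1 FPKM, Ptger2 (1.88) and Ptgfr (1.08) also passed 2-fold against PRP, and Ptger2 (1.57) against MNs.

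**Figure D3:**
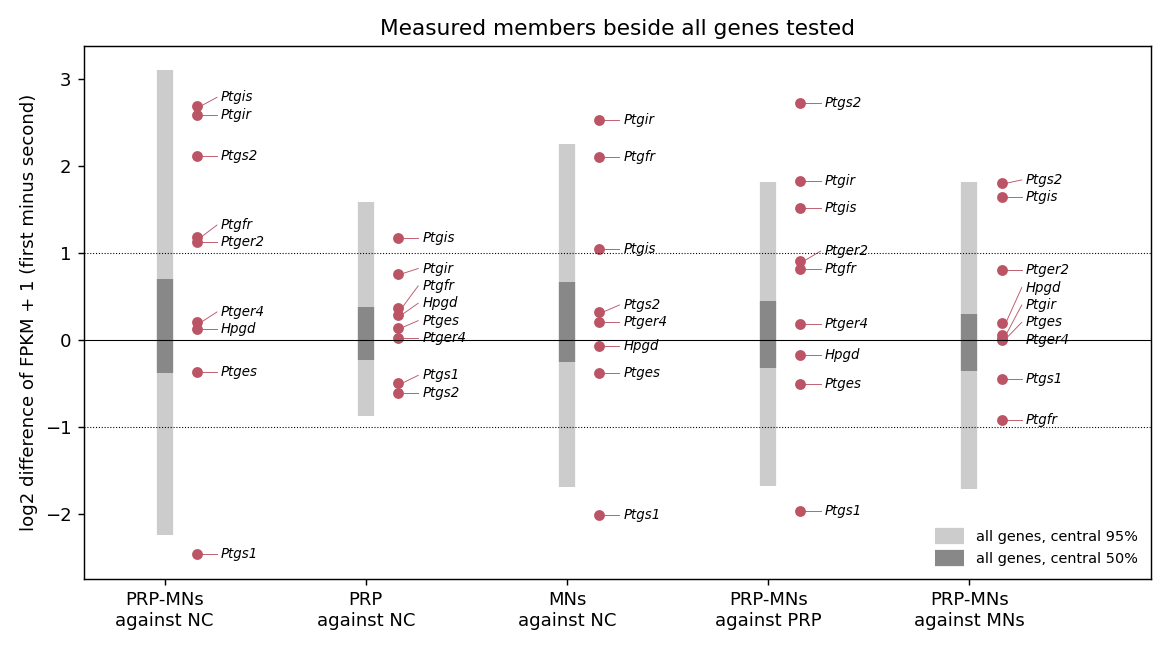
Red points are log2 differences of FPKM + 1 of the measured genes in 5 comparisons, beside grey bars for the central 95% and 50% of all genes tested, with dotted lines at 2-fold. Ptgs1 lies below the central 95% of genes in PRP-MNs against NC (−2.47), PRP-MNs against PRP (−1.97) and MNs against NC (−2.02), Ptgs2 lies above it in PRP-MNs against PRP (2.73), and Ptgir in MNs against NC (2.53) and narrowly in PRP-MNs against PRP (1.83).

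Since PRP was named both alone and beside microneedles, the difference between libraries with and without it could be read in both settings. For Ptgs2 it was −0.61 without microneedles (PRP against NC) and 1.80 with them (PRP-MNs against MNs), an excess of 2.41 for the combination. For Ptgfr it was 0.37 without and −0.92 with microneedles, an excess of −1.28. Ptgis was higher with PRP in both settings, by 1.17 and 1.64, and Ptgs1 was lower in both, by −0.50 and −0.45. For the remaining genes that reached 1 FPKM the excess lay between −0.71 (Ptgir) and 0.60 (Ptger2). With a pseudocount of 0.1 FPKM the excess was −1.67 for Ptgir and −1.64 for Ptgfr. Among the differences of Ptgs2 and Ptgfr, only the 1.80 of Ptgs2 reached 2-fold with the pseudocount of 1 FPKM. None of these excesses could be tested, and the excess was not computed over all genes.

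**Figure D4:**
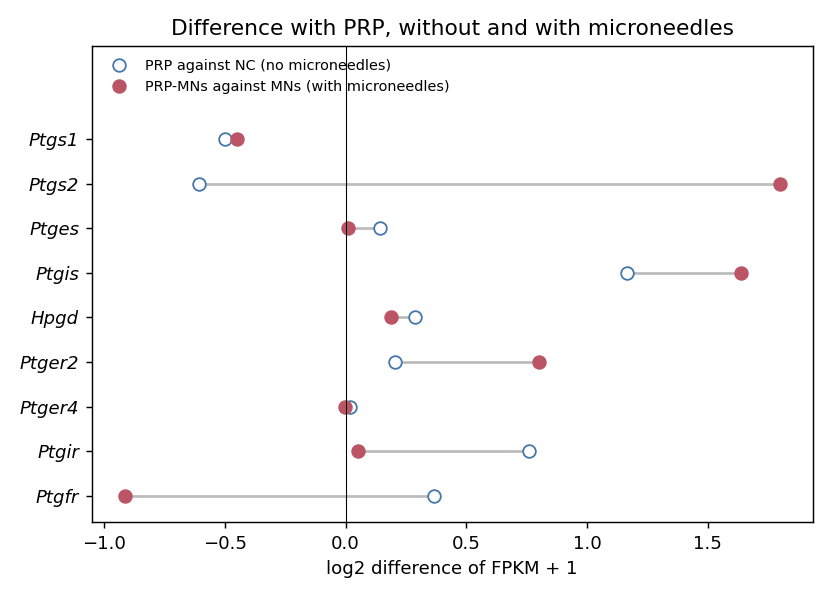
Open blue points give the log2 difference of FPKM + 1 of PRP against NC and filled red points that of PRP-MNs against MNs, 1 row for each gene that reached 1 FPKM. The points fall on opposite sides of 0 and far apart for Ptgs2 (−0.61 and 1.80) and Ptgfr (0.37 and −0.92).

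Genes listed as upstream of the cyclooxygenases differed in both directions. Of 18 genes of arachidonate release, 15 were measured in PRP-MNs against NC. Of these, 2 were at least 2-fold higher and 4 lower (median −0.31, against 0.14 over all genes), beside 17.6% and 11.5% of all genes. The 2 higher were Pla2g15 (1.83) and Pla2g7 (3.0), which degrades platelet-activating factor, so the list is broader than arachidonate release. Pla2g4a, the cytosolic phospholipase that releases arachidonate, stood at 25.9 FPKM in NC, 14.3 in PRP, 14.6 in MNs and 9.73 in PRP-MNs. Pla2g2f, a secreted phospholipase of the upper epidermis, was at 515.7 FPKM in NC and 56.2 FPKM in PRP-MNs (−3.18). Faah, the fatty acid amide hydrolase, was at 35.6 against 3.71 FPKM (−2.96).

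Pla2g7, the macrophage enzyme that degrades platelet-activating factor, ran the other way, at 8.39 FPKM in NC and 74.1 FPKM in PRP-MNs (3.0). Mgll, the monoglyceride lipase, which supplies arachidonate from endocannabinoids, was at 252.7 FPKM in MNs and between 27.4 and 47.0 FPKM in the other libraries. In MNs against NC the list held 5 higher and 3 lower of 14 measured (median 0.19, against 0.16 over all genes), beside 15.7% higher and 7.12% lower of all genes. In PRP against NC it held 1 higher and none lower of 14 (median 0.03, against 0.04), beside 7.78% and 1.46% of all genes. The 6 sebaceous gland markers, all at least 2-fold higher in MNs than in NC, summed to 1983 FPKM in MNs and to between 439.0 and 578.2 FPKM elsewhere, and their part in the level of Mgll was not tested.

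Among 8 other prostanoid synthases, 2 were at least 2-fold higher and 3 lower in PRP-MNs against NC, beside 17.6% and 11.5% of all genes. The median was −0.06, against 0.14 over all genes. Tbxas1, the thromboxane synthase of platelets and macrophages, was at 1.00 FPKM in NC, 4.93 in PRP, 4.31 in MNs and 5.91 in PRP-MNs, and was at least 2-fold higher than NC in all 3. Akr1c18, an aldo-keto reductase, was at 12.7 FPKM in NC and 2.88 FPKM in PRP-MNs (−1.82). Fam213b, a prostamide and prostaglandin F synthase now called Prxl2b, was at 72.3 against 28 FPKM (−1.34). Cbr1, the carbonyl reductase, was at 32.3 FPKM in MNs and between 9.85 and 10.4 FPKM elsewhere, high in the same library as the sebaceous gland markers.

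In the list of 6 genes of transport and inactivation, 5 were found. In PRP-MNs against NC 1 was at least 2-fold higher and 1 lower, beside 17.6% and 11.5% of all genes. Slco2a1, the carrier that takes prostaglandins into cells, reached 27.0 FPKM in PRP-MNs and lay between 8.13 and 10.3 FPKM in the other libraries. Ptgr1, a reductase that acts after Hpgd, was at 46.1 FPKM in NC, 31.8 in PRP, 25.9 in MNs and 10.2 in PRP-MNs. Abcc4, the export pump, stayed between 5.93 and 9.51 FPKM, and Ptgr2 between 10.1 and 16.3 FPKM. Of 5 other receptors, Ptger3 stood at 2.70 FPKM in NC, 3.71 in PRP, 7.89 in MNs and 5.70 in PRP-MNs, and Tbxa2r, the thromboxane receptor, reached 1 FPKM in MNs alone (1.56 FPKM).

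Among 13 genes known to induce Ptgs2 and Ptges, 7 were at least 2-fold higher and none lower in PRP-MNs against NC, beside 17.6% higher and 11.5% lower of all genes. The median was 1.81, against 0.14 over all genes. In MNs against NC 5 were higher and 1 lower, beside 15.7% and 7.12% of all genes (median 0.62, against 0.16). In PRP against NC 2 were higher and none lower, beside 7.78% and 1.46% (median 0.17, against 0.04). The cytokine Il1b was at 9.94 FPKM in NC, 20.8 in PRP, 52.5 in MNs and 538.9 in PRP-MNs, where Ptgs2 was also highest. Its receptor Il1r1 was at 6.76, 11.8, 35.1 and 38.6 FPKM in the same order, and the lipopolysaccharide receptor Tlr4 at 1.88, 6.97, 10.3 and 20.7 FPKM. Il1a was lowest in MNs, at 4.17 FPKM, and highest in NC, at 27.9 FPKM. In PRP, Il1b was above NC while Ptgs2 was below it (5.46 against 8.86 FPKM). Ptges was not higher in PRP-MNs than in NC (−0.37). The part of these genes in the levels of Ptgs2 and Ptges was not tested.

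Ptger2, Ptger4 and Ptgir raise cAMP, so 9 genes that respond to cAMP were read as well. In PRP-MNs against NC 2 were at least 2-fold higher and 1 lower, beside 17.6% and 11.5% of all genes. The median was 0.10, against 0.14 over all genes. Crem, a repressor induced by cAMP, was at 34.3 FPKM in PRP-MNs against 7.81 FPKM in NC (2.0), and the phosphodiesterase Pde4b at 45.0 against 6.91 FPKM (2.54). The nuclear receptor Nr4a1 was lower, at 27.3 against 76.0 FPKM (−1.44), and Nr4a3 was lowest in PRP, at 1.98 FPKM. In PRP against NC none of the 9 was higher and 3 were lower, beside 7.78% and 1.46% of all genes. In MNs against NC 1 was higher and none lower, beside 15.7% and 7.12%.

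**Figure D5:**
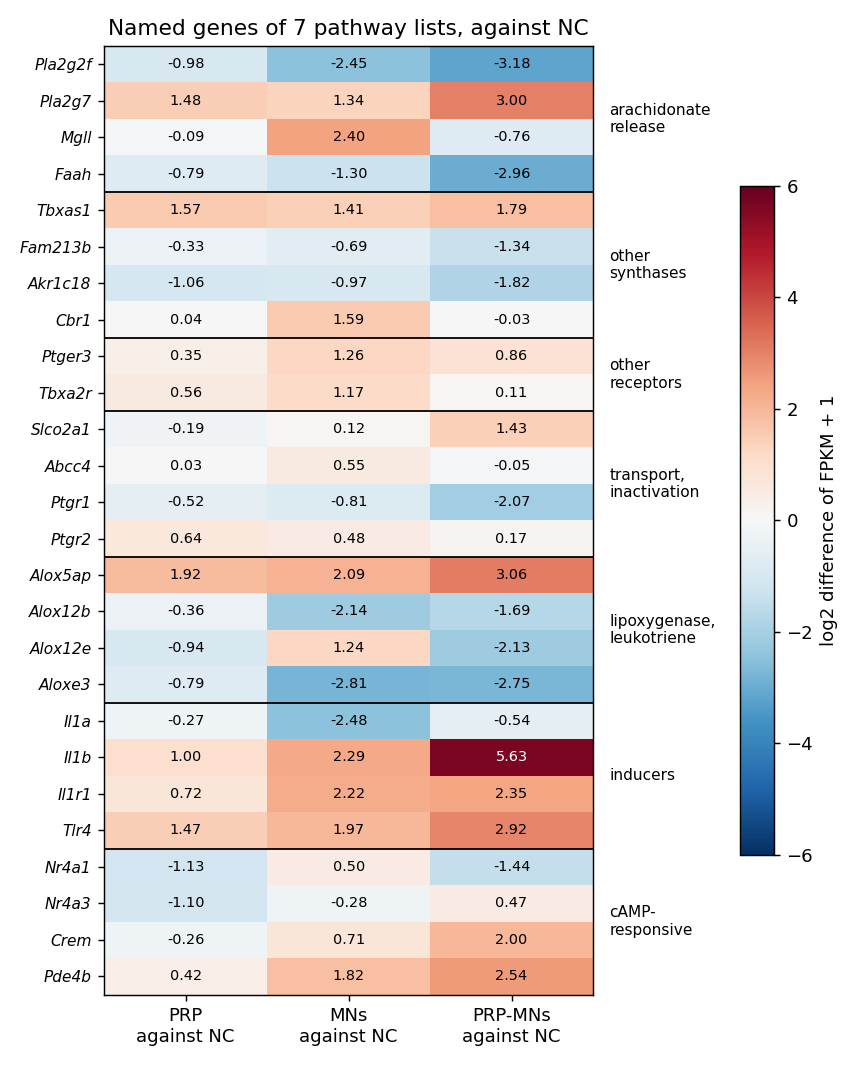
Cells give the log2 difference of FPKM + 1 against NC for the genes named from 7 pathway lists (rows) in PRP, MNs and PRP-MNs (columns), red for higher and blue for lower. Il1b in PRP-MNs (5.63) has the largest difference. Pla2g2f, Faah, Fam213b, Akr1c18, Ptgr1, Alox12b, Aloxe3 and Il1a are lower than NC in all 3 columns.

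The genes nearest in pattern to each varying prostaglandin gene were sought by the root mean square distance between centred log2 values over the 4 libraries, among 10138 genes that reached 5 FPKM. With 4 libraries many genes lie close by, so the names only describe the pattern. Nearest to Ptgs1 were Sh3rf2, Tprg and Serpinb8, at distances of 0.062 to 0.068. Nearest to Ptgs2 were Ch25h (0.054), Mmp1b (0.12) and Csrnp1 (0.16), of which Ch25h reached 10.7 FPKM in PRP-MNs and lay between 0.86 and 2.73 FPKM in the other libraries.

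Ptgis lay nearest to Ncf4 (0.025), a subunit of the phagocyte oxidase, to the cytokine receptor chain Il2rg (0.047) and to the leukocyte integrin Itgb7 (0.052). Ptgir lay nearest to Kcne4 (0.11), Il1r1 (0.13) and Nrp2 (0.13), and Ptgfr to the myosin kinase gene Mylk (0.059), the collagen gene Col12a1 (0.066) and Dusp4 (0.085). Among the 8 of the 10 genes that reached 5 FPKM, the closest pair was Ptges and Hpgd (0.184), both nearly level, and the farthest was Ptgs1 and Ptgir (2.14). Ptgs1 and Ptgs2 were 1.93 apart, Ptgs2 and Ptgis 0.642, and Ptgir and Ptgfr 0.517.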

How the data were processed

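RNA of mouse skin was sequenced in 4 libraries, 1 per group, made from 1 μg of RNA with an NEBNext Ultra kit, per the labels' protocols. The authors deposited 1 table of FPKM values for 25571 genes, of which 3535 were models without Ensembl identifiers. The submitters' processing notes name GRCm38 as the build. The aligner and the counting tool are not given in the sources used here. FPKM is scaled within a library, so abundant genes shift all others. The 10 genes and all lists were chosen with earlier results of these data known.

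From the FPKM values, log2 ratios with a pseudocount of 1 FPKM were computed over all genes reaching 1 FPKM in at least 1 of the 2 libraries (Python 3.11.15, pandas 2.3.3, numpy 2.4.6). In 5 comparisons each treatment was set against NC, and PRP-MNs against each single treatment. Coordinates came from GENCODE release M21 and promoter windows from RefSeq. Depth was searched between 8 and 25 M fragments in genes with a single transcript, where at the best step 23.3% to 27.1% of low values were whole fragments to within 0.02, against medians of 3.14% to 3.35% at other steps. Whole counts were therefore not recovered and no count test was run.

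All 10 genes were named. From each pathway list up to 4 genes with the largest difference against NC were named. Beside them Pla2g4a, Pla2g15, Hpgds, Ptges3, Akr1b3, the low receptors and some markers were named, chosen after their values were seen. Marker lists numbered 16 and pathway lists 7. Of 73 pathway genes 72 were found, with Pla2g16 and Fam213b under older symbols, and of 99 marker genes 98. The calculations were tested on simulated data. Alternatives were a pseudocount of 0.1, no filter or a filter at 5 FPKM, 2 rescalings and centring.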

Additional observations from a re-analysis of the deposited data

Results flagged for a closer look

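For Ptgs2 and Ptgfr, the library with PRP differed from the one without it in opposite directions in the pair without and the pair with microneedles. For Ptgs2 the excess of the combination was 2.41 on the log2 scale, with 5.46 FPKM in PRP against 8.86 FPKM in NC and 41.8 FPKM in PRP-MNs against 11.3 FPKM in MNs. For Ptgfr the excess was −1.28, with 1.82 against 1.19 FPKM and 3.97 against 8.38 FPKM. Of the differences behind these values, only that of Ptgs2 with microneedles (1.80) reached 2-fold. That of Ptgs2 without microneedles (−0.61) and those of Ptgfr (0.37 and −0.92) did not. The excess was not computed over all genes, so how common such values are is not known. Each value rests on 1 library per group, and the difference between the settings was not tested.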

How the results depend on the processing

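With a pseudocount of 0.1 FPKM, the genes at least 2-fold higher numbered 2 in PRP against NC and 5 in PRP-MNs against PRP, 1 gene (Ptgfr, −1.06) was at least 2-fold lower in PRP-MNs against MNs, and the excess of Ptgir was −1.67. With a filter at 5 FPKM, 3 genes were higher in PRP-MNs against NC, since fewer genes were measured. In all, 56 of 60 counts, 165 of 172 single differences and 35 of 36 excess values kept their side of 2-fold or stayed within 1.5 times, and no counted difference changed direction. Centring put Ptger2 in PRP-MNs against NC at 0.97 and Ptgis in MNs against NC at 0.89. Setting the FPKM sums equal shifted the all-gene median from 0.14 to 0.29 (PRP-MNs against NC), from 0.16 to 0.34 (MNs against NC) and from 0.08 to 0.18 (PRP-MNs against PRP). In MNs against NC, 2188 genes were higher and 991 lower as deposited, and 1729 and 1261 after centring. No library could be left out, with 1 per group. No paired analysis was possible because the labels give no replicate numbers and each group has 1 library. Of the 10 genes, Ptgds and Ptger2 rest on the fewest fragments in any library.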

Other observations

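The lipoxygenase and leukotriene branch draws on the same arachidonate. Of 14 genes, 11 were measured in PRP-MNs against NC, 1 was at least 2-fold higher and 5 were lower, beside 17.6% and 11.5% of all genes, with a median of −0.65 against 0.14 over all genes tested. Alox5ap, the activating protein that leukocytes need to make leukotrienes, stood at 15.9 FPKM in NC, 63.2 in PRP, 71.0 in MNs and 140.8 in PRP-MNs, and was at least 2-fold higher than NC in all 3. Its partner enzyme Alox5 did not follow, at 5.41 FPKM in NC, 4.49 in PRP, 11.1 in MNs and 4.56 in PRP-MNs. The epidermal lipoxygenases of the skin barrier were low in both microneedle libraries. Alox12b was at 58.7 FPKM in NC, 45.6 in PRP, 12.5 in MNs and 17.5 in PRP-MNs, and Aloxe3 at 38, 21.6, 4.55 and 4.82 FPKM. Alox12e, another epidermal lipoxygenase, differed between the microneedle libraries, at 24.0 FPKM in MNs and 1.42 FPKM in PRP-MNs, and sebaceous gland markers were also highest in MNs, at 1983 FPKM in sum, their part not being tested. Alox5 was named after its values were seen.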
